A study of Mus musculus with 30 samples.

Results

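The 10 genes described here encode enzymes of the mitochondrial beta-oxidation spiral. They are the acyl-CoA dehydrogenases Acadvl, Acadl, Acadm and Acads, the trifunctional protein subunits Hadha and Hadhb, and the shorter-chain enzymes Echs1, Hadh and Acaa2. The last is Etfdh, which collects the electrons of the dehydrogenases. They were taken by name, by their role in the spiral, and all 10 had an entry among the 16475 gene entries of the arrays. Each entry summarises the probes of 1 gene in RNA of mouse quadriceps, a thigh muscle made mostly of fast fibres.

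Each turn of the spiral shortens a fatty acyl-CoA through a set order of steps. An acyl-CoA dehydrogenase makes a double bond, an enoyl-CoA hydratase adds water, a hydroxyacyl-CoA dehydrogenase oxidises the product, and a thiolase cuts off acetyl-CoA. Enzymes of the same step differ in the chain lengths they accept. Long chains are handled at the inner membrane by Acadvl and by the trifunctional protein of Hadha and Hadhb, with Acadl in the matrix, and medium and short chains are handled in the matrix by Acadm, Acads, Echs1, Hadh and Acaa2. In skeletal muscle the spiral supplies energy at rest and during prolonged work, and many of its genes are known targets of nuclear receptors such as the PPARs and estrogen-related receptors.

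There were 3 groups of 10 male mice, 1 mouse per array. HF d56 mice ate a high fat diet until day 56 and LF d56 mice a low fat diet until day 56, and both were then 20 weeks old. LF d0 mice were killed at day 0, at 12 weeks. The labels spell the strain C56BL/6J. All 3 groups had first eaten a growth diet and then, from an age of 9 weeks, the low fat diet for 3 weeks. Mice that went on were put on either diet at random. HF d56 against LF d56 compares the diets at equal age, and LF d56 against LF d0 compares ages on the low fat diet. HF d56 against LF d0 joins diet and age, which cannot be told apart in it. The 3 comparisons share arrays.

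In HF d56 over LF d0, 7 of the 10 genes rose, by 1.17 to 1.31 fold: Acadvl, Acadl, Acadm, Hadha, Hadhb, Acaa2 and Etfdh (limma, adjusted p of 0.0185 or lower in each). Of all 16475 entries, 1.59% were called in that comparison and 0.783% were called higher. All 10 genes had the higher mean in HF d56 there, and 8 had it at an unadjusted p below 0.05, against 51.1% and 5.31% of all entries. In LF d56 over LF d0, 1 of the 10 passed, Acadm, the medium-chain dehydrogenase, at 1.18 fold (adjusted p = 0.0142), where 0.85% of all entries were called and 0.225% were called higher. All 10 had the higher mean in LF d56, 2 of them at an unadjusted p below 0.05, against 50.4% and 4.26% of all entries. Between HF d56 and LF d56, 0 of the 10 passed by limma, where 4 of the 16475 entries or 0.0243% were called. At an unadjusted p below 0.05, 7 of the 10 were higher, against 2.99% of all entries. The differences between the diets were small and mostly in 1 direction: 9 of the 10 genes had the higher mean in HF d56, against 51.5% of all entries, with a median log2 difference of 0.18 over the 10 genes and 0.003 over all entries.

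Values are intensities that the authors made with GCRMA, on a linear scale. Levels of different genes come from different probes and were not set against each other. Differences are of log2 intensity, given with the standard error of the fit (SE), and the test is limma over all 30 arrays with Benjamini-Hochberg adjustment over all 16475 entries and a threshold of 0.05. In RNA of whole muscle, fewer cells of a type and less RNA per cell cannot be told apart.

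Of the muscle markers, 12 of 12 were above an intensity of 20, and none of 4 heart markers was. By the balance of 5' and 3' signal of spike-in controls the arrays fell into sets of 21 and 9, with 3 arrays of each group in the smaller set, and 3 of the 10 spiral genes (Acads, Echs1 and Acaa2) and 23.1% of all entries differed between the sets. Neutrophil markers ran high on some arrays of every group. The 8 markers summed to 38.0 to 13447 in HF d56, 38.4 to 2613 in LF d56 and 40.4 to 10318 in LF d0. S100a8, a neutrophil protein, was above 100 on 6 arrays of HF d56, 4 of LF d56 and 7 of LF d0. By limma 0 of 8 neutrophil markers passed in each comparison, with 2 lower at an unadjusted p below 0.05 in LF d56 over LF d0, where all 8 were lower with a median log2 difference of -2.06. Of 6 endothelial markers, all were lower in LF d56 than in LF d0 and 1 passed, Cldn5, a tight junction protein, at -0.79 (adjusted p = 0.013), and at -0.71 in HF d56 over LF d0 (adjusted p = 0.0207). The 8 slow fibre markers, measured in full, summed to 366.1 to 6703 in HF d56, 497.3 to 8844 in LF d56 and 533.7 to 6762 in LF d0. By limma 0 of 8 passed in each of the 3 comparisons, and 0 of 8 had an unadjusted p below 0.05. Of the 8 adipocyte markers, 6 were measured, and these summed to 6692 to 11259 in HF d56, 6157 to 10132 in LF d56 and 6106 to 8064 in LF d0. Lep averaged 43.4 in HF d56, and 9.66 in LF d56 and 5.91 in LF d0, both under the level of 20. Of the adipocyte markers, 4 of 6 (Lep, Adipoq, Cidec and Retn) rose in HF d56 over LF d0, the comparison in which 7 spiral genes rose. Thrsp, also on that list, was at -0.40 there and at -0.32 for diet (limma adjusted p = 0.157 and 0.926). Of 5 brown adipocyte markers 0 passed in each comparison by limma, with 3 lower for diet and 3 higher for time. Ucp1, on that list, averaged 4.17 in HF d56, 28.8 in LF d56 and 3.91 in LF d0. Its log2 difference was -0.998 for diet and 1.06 for time (limma adjusted p = 0.941 and 0.395). Of 6 macrophage markers and the 1 red cell precursor marker measured, 0 passed in each comparison by limma. The part of these cells in the results was not tested beyond the values with their scores as covariates.

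**Figure D1:**
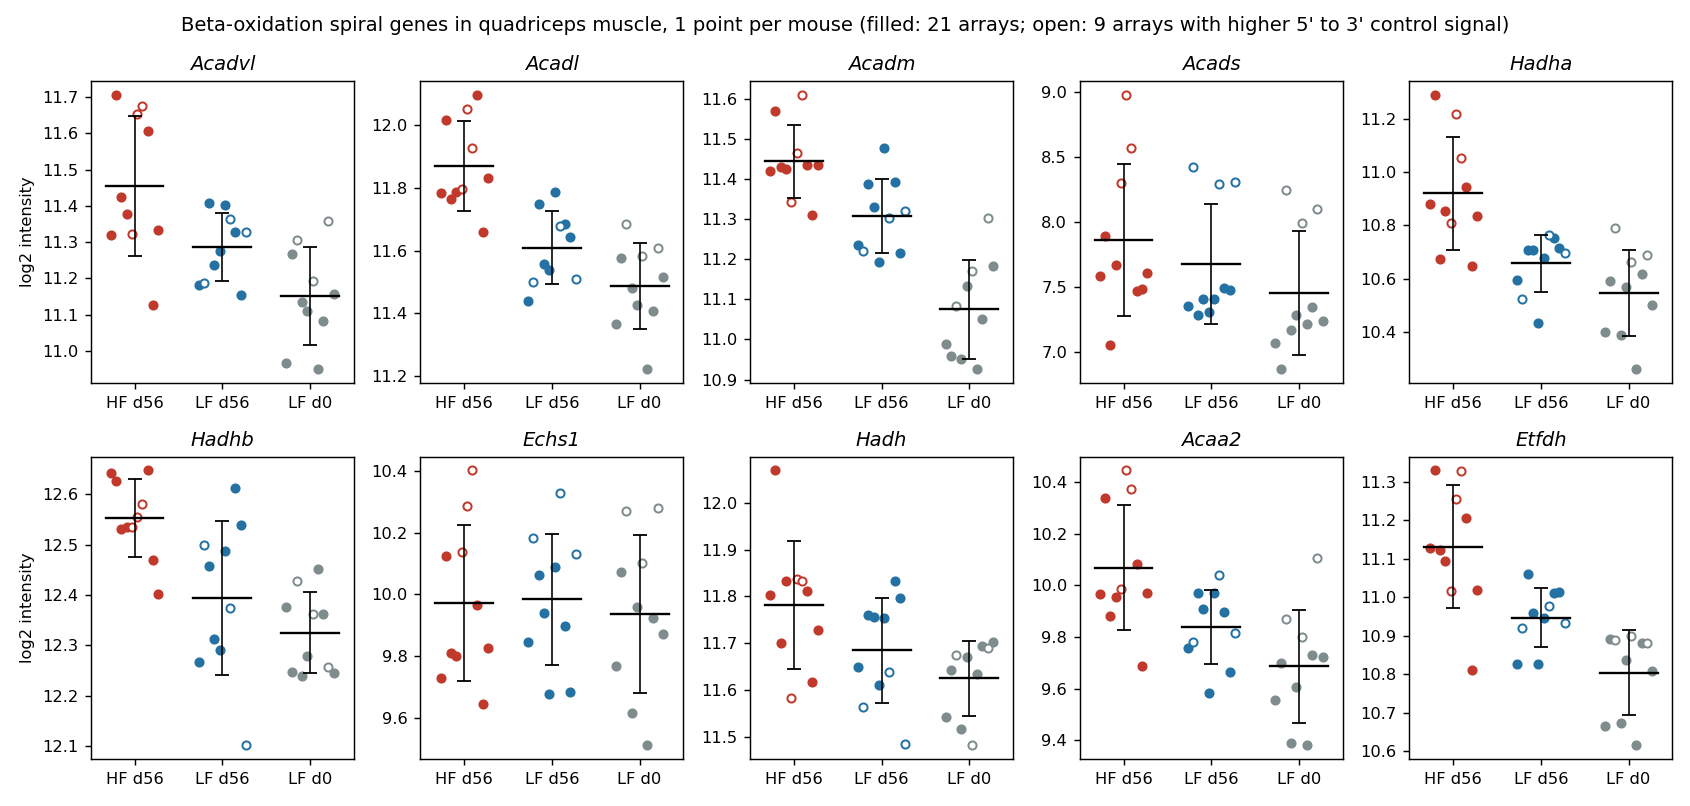
Log2 intensity of the 10 spiral genes on every array, 1 panel per gene on its own scale, with HF d56, LF d56 and LF d0 from left to right; bars are the mean ± SD over 10 mice, filled points the 21 arrays and open points the 9 arrays of the spike-in sets. Acadm lies higher on every HF d56 array than on any LF d0 array, and the open points of Acads stand apart from its filled points in all 3 groups.

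The dehydrogenases open the spiral. Acadl, the long-chain acyl-CoA dehydrogenase, had a lowest, median and highest intensity of 3233, 3600 and 4383 in HF d56, 2775, 3106 and 3536 in LF d56, and 2387, 2895 and 3292 in LF d0. All 10 HF d56 arrays were above the LF d56 mean and 6 were above every LF d56 array, although the groups overlapped. The log2 difference between HF d56 and LF d56 was 0.26 ± 0.06 (SE, 95% interval 0.14 to 0.39, limma adjusted p = 0.123), 1.2 fold and at rank 22 of the 16475 p-values. Between LF d56 and LF d0 it was 0.12 ± 0.06 (adjusted p = 0.511), and Acadl rose by 0.38 ± 0.06 across HF d56 and LF d0 (adjusted p = 0.000275), with 9 of 10 HF d56 arrays above every LF d0 array. It did not pass on the 9 arrays (0.30, adjusted p = 0.476) or in the 13 arrays without high S100a8 (0.36, adjusted p = 0.304).

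Acadm, the medium-chain enzyme, was called in 2 comparisons. Its lowest, median and highest intensities were 2538, 2762 and 3125 in HF d56, 2342, 2541 and 2852 in LF d56, and 1944, 2146 and 2526 in LF d0. HF d56 and LF d0 did not overlap, as did 0.194% of all entries in that comparison, and 9 of 10 LF d0 arrays lay below the lowest LF d56 array. Acadm rose by 0.23 ± 0.05 in LF d56 over LF d0 (limma adjusted p = 0.0142) and by 0.37 ± 0.05 in HF d56 over LF d0 (adjusted p = 3.09e-05). Between HF d56 and LF d56 its difference was 0.14 ± 0.05 (adjusted p = 0.786), with all 10 HF d56 arrays above the LF d56 mean. The call in LF d56 over LF d0 was lost narrowly with the replicate block (adjusted p = 0.0521) and with quantile normalization (adjusted p = 0.0506). On the 9 arrays the 2 called differences were 0.10 and 0.29, and without the arrays of high S100a8 they were 0.23 and 0.32, and neither passed in either fit (limma adjusted p between 0.278 and 0.849).

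Acadvl, the very long-chain enzyme at the inner membrane, had a lowest, median and highest intensity of 2235, 2704 and 3341 in HF d56, 2279, 2525 and 2719 in LF d56, and 1977, 2265 and 2624 in LF d0. The HF d56 arrays spread widely: 5 were above every LF d56 array while the lowest was under all of them. Its log2 difference was 0.17 ± 0.07 between HF d56 and LF d56 (limma adjusted p = 0.859) and 0.14 ± 0.07 between LF d56 and LF d0 (adjusted p = 0.496), and Acadvl rose by 0.30 ± 0.07 in HF d56 over LF d0 (adjusted p = 0.0104). Leaving out the 17 arrays in which S100a8 exceeded 100 left 4 arrays of HF d56, 6 of LF d56 and 3 of LF d0. The difference between the diets was then 0.01 and that between HF d56 and LF d0 was 0.25 (limma adjusted p = 0.998 and 0.555).

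Acads, the short-chain enzyme, differed more between the spike-in sets than between groups. It measured 254.1 to 505 on the 9 arrays and 116.4 to 237.2 on the 21 arrays, with no overlap, a log2 difference of 0.99 ± 0.07 (limma adjusted p = 1e-11). Its lowest, median and highest intensities were 132.8, 199.2 and 505 in HF d56, 155.7, 173.8 and 343.7 in LF d56, and 116.4, 153 and 303.5 in LF d0, so the groups overlapped almost fully. Differences of 0.18 ± 0.22 between HF d56 and LF d56, 0.23 ± 0.22 between LF d56 and LF d0 and 0.41 ± 0.22 between HF d56 and LF d0 did not pass (limma adjusted p = 0.998, 0.806 and 0.505). With the set as a block the difference between HF d56 and LF d0 was 0.41 ± 0.08 and passed (limma adjusted p = 0.00276), and those of diet and of time did not (adjusted p = 0.761 and 0.2).

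The next steps on long chains belong to the trifunctional protein. Hadha, its alpha subunit with the hydratase and hydroxyacyl-CoA dehydrogenase activities, had a lowest, median and highest intensity of 1606, 1868 and 2502 in HF d56, 1384, 1666 and 1741 in LF d56, and 1227, 1531 and 1773 in LF d0. Of the 10 HF d56 arrays, 8 were above every LF d56 array. The log2 difference between HF d56 and LF d56 was 0.26 ± 0.07 (limma adjusted p = 0.42), close in size to that of Acadl. Between LF d56 and LF d0 it was 0.11 ± 0.07 (adjusted p = 0.653), and Hadha rose by 0.37 ± 0.07 in HF d56 over LF d0 (adjusted p = 0.00371). Without the 17 arrays with S100a8 above 100 the diet difference of Hadha was 0.13 and the difference between HF d56 and LF d0 was 0.21 (limma adjusted p = 0.991 and 0.646).

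Hadhb, the beta subunit with the long-chain thiolase, pairs with Hadha in equal number in the protein. Its lowest, median and highest intensities were 5416, 5977 and 6416 in HF d56, 4395, 5467 and 6260 in LF d56, and 4834, 5121 and 5604 in LF d0. LF d56 held an array lower than any of LF d0 and 5 arrays above all of LF d0. The log2 difference was 0.16 ± 0.05 between HF d56 and LF d56 (limma adjusted p = 0.623), with 10 of 10 HF d56 arrays above the LF d56 mean, and 0.07 ± 0.05 between LF d56 and LF d0 (adjusted p = 0.714). Hadhb rose by 0.23 ± 0.05 in HF d56 over LF d0 (adjusted p = 0.0164). Within the 21 arrays alone that last difference did not pass (adjusted p = 0.0789).

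Of the enzymes of the same steps for shorter chains, the thiolase alone passed. Echs1, the short-chain enoyl-CoA hydratase, had a lowest, median and highest intensity of 800.7, 953 and 1354 in HF d56, 818.4, 1026 and 1287 in LF d56, and 729.2, 984 and 1244 in LF d0. Its log2 differences were -0.01 ± 0.11 between HF d56 and LF d56 (95% interval -0.23 to 0.20), 0.05 ± 0.11 between LF d56 and LF d0 and 0.04 ± 0.11 between HF d56 and LF d0, with limma adjusted p of 0.998, 0.932 and 0.963. Like Acads, Echs1 was higher on the 9 arrays than on the 21, by 0.39 ± 0.06 (limma adjusted p = 1.88e-05).

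Hadh, the medium- and short-chain hydroxyacyl-CoA dehydrogenase, had a lowest, median and highest intensity of 3071, 3586 and 4294 in HF d56, 2870, 3334 and 3648 in LF d56, and 2864, 3229 and 3335 in LF d0. Its groups overlapped in every comparison, and its differences of 0.10 ± 0.05 for HF d56 over LF d56, 0.06 ± 0.05 for LF d56 over LF d0 and 0.16 ± 0.05 for HF d56 over LF d0 did not pass (limma adjusted p = 0.991, 0.775 and 0.175). Acaa2, the thiolase of medium chains, had a lowest, median and highest intensity of 824.2, 1008 and 1393 in HF d56, 766.5, 927.1 and 1052 in LF d56, and 666.7, 837.8 and 1102 in LF d0. In HF d56, 4 of its arrays were above every LF d56 array. Acaa2 differed by 0.23 ± 0.09 between HF d56 and LF d56 (limma adjusted p = 0.843) and by 0.15 ± 0.09 between LF d56 and LF d0 (adjusted p = 0.596), and it rose by 0.38 ± 0.09 in HF d56 over LF d0 (adjusted p = 0.0185). It too was higher on the 9 arrays, by 0.23 ± 0.07 (limma adjusted p = 0.0155), and with only HF d56 and LF d0 in the fit its difference did not pass (adjusted p = 0.0627).

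Etfdh, the oxidoreductase that hands the electrons of all the acyl-CoA dehydrogenases to ubiquinone, had a lowest, median and highest intensity of 1797, 2234 and 2573 in HF d56, 1816, 1981 and 2138 in LF d56, and 1569, 1857 and 1909 in LF d0. Its groups overlapped: 7 HF d56 arrays were above every LF d56 array while the lowest was under all of them. Of the LF d56 arrays, 8 were above every LF d0 array. The log2 difference was 0.18 ± 0.06 between HF d56 and LF d56 (limma adjusted p = 0.542) and 0.14 ± 0.06 between LF d56 and LF d0 (adjusted p = 0.335), and Etfdh rose by 0.33 ± 0.06 in HF d56 over LF d0 (adjusted p = 0.000877). Leaving out the 17 arrays with S100a8 above 100 gave 0.09, 0.11 and 0.20 (limma adjusted p = 0.991, 0.625 and 0.647).

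**Figure D2:**
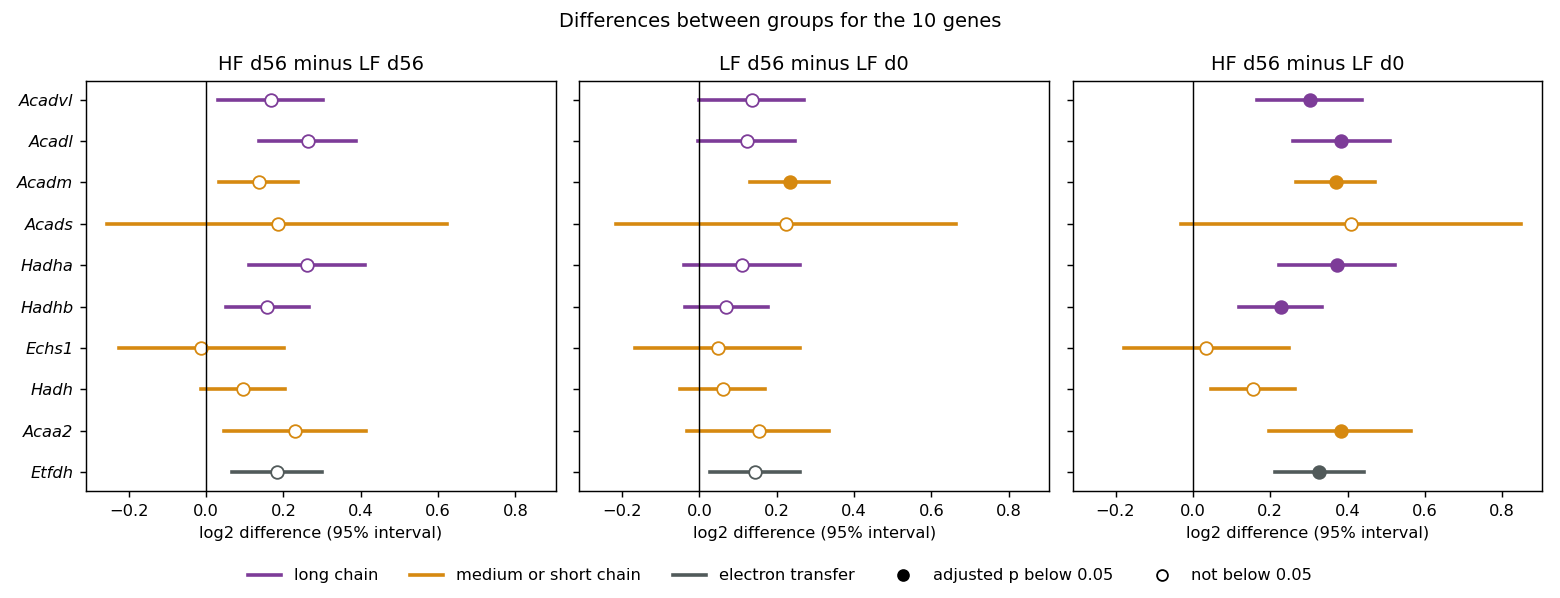
Log2 difference of each of the 10 genes with its 95% interval in the comparisons HF d56 minus LF d56, LF d56 minus LF d0 and HF d56 minus LF d0; purple marks long-chain, orange medium- and short-chain and grey electron transfer genes, and a filled marker a limma adjusted p below 0.05. No marker is filled for diet, Acadm alone is filled for time, and 7 are filled for HF d56 minus LF d0.

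In order of level, 9 of the 10 genes had means that ran upward from LF d0 over LF d56 to HF d56, and Echs1 had LF d56 highest. Of the neighbouring groups in those orders, only LF d0 and LF d56 of Acadm differed past the threshold, and no diet difference did. On the 21 arrays of the larger spike-in set the median log2 difference over the 10 genes was 0.14 for HF d56 over LF d56, 0.185 for LF d56 over LF d0 and 0.35 for HF d56 over LF d0. On the 9 arrays it was 0.26, -0.014 and 0.29. On the 21 arrays 6 of the 7 genes passed between HF d56 and LF d0, without Hadhb, where 0.813% of all entries were called. Acadm passed between LF d56 and LF d0 there (0.29, limma adjusted p = 0.0364), against 0.285% of all entries. On the 9 arrays 0 of 10 genes passed in each comparison, and of all 16475 entries 0, 11 and 0 were called for diet, for time and between HF d56 and LF d0, so that count says nothing particular about the 10 genes. Without the 17 arrays of high S100a8, the median log2 difference over the 10 genes was 0.07 between HF d56 and LF d56, 0.17 between LF d56 and LF d0 and 0.23 between HF d56 and LF d0. In each, 0 of 10 passed by limma, and of all 16475 entries 0, 13 and 6 did, so few calls of any kind were made in that fit. With all arrays those medians were 0.18, 0.13 and 0.35, and the fit without the 17 had 13 arrays. With a neutrophil score as a covariate in the fit of all 30 arrays, 8 of 10 genes passed between HF d56 and LF d0, Hadh joining the other 7, with 1.79% of all entries called against 1.59% without a covariate. With an adipocyte score as the covariate, 4 of 10 passed there (Acadvl, Acadl, Acadm and Etfdh), and the calls among all entries fell to 64 or 0.388%. Hadha, Hadhb and Acaa2 were at 0.41, 0.25 and 0.43 in that fit (limma adjusted p = 0.0647, 0.16 and 0.145). With a slow fibre score 7 of 10 passed, and 1.64% of all entries.

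A slow fibre score as covariate brought Acadl past the threshold for diet (0.27, limma adjusted p = 0.036), and a mitochondrial content score brought Acadl (0.26, adjusted p = 0.00896) and Hadha (0.25, adjusted p = 0.0119). The diet calls among all entries were 13 and 15 in these fits, or 0.0789% and 0.091%, against 4 without a covariate. Genes of mitochondrial content other than the spiral, such as citrate synthase and the respiratory chain subunits, gave 0 of 20 measured genes past the threshold in each comparison by limma, and 0 of 20 at an unadjusted p below 0.05. Their median log2 difference was 0.003 between HF d56 and LF d56, 0.01 between LF d56 and LF d0 and 0.02 between HF d56 and LF d0.

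By chain length the diet differences of the 4 long-chain genes (Acadvl, Acadl, Hadha and Hadhb) ran between 0.16 and 0.26 with a median of 0.215. Those of the 5 medium- and short-chain genes (Acadm, Acads, Echs1, Hadh and Acaa2) ran between -0.01 and 0.23 with a median of 0.14. For LF d56 over LF d0 the medians were 0.12 for long-chain and 0.15 for medium- and short-chain genes, and for HF d56 over LF d0 they were 0.34 and 0.37. By step, the median was 0.18 for the 4 dehydrogenases and 0.16 for the 5 later enzymes for diet, 0.18 and 0.07 for time, and 0.38 and 0.23 in HF d56 over LF d0. These medians of classes were not tested against each other, and the SE of single genes in them ran from 0.05 to 0.22.

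Whether partners of a step moved unequally was tested on the ratio of their intensities within each array. The 10 pairs were compared for diet and for time by a two-sided permutation test of the arrays, with p-values adjusted over the 20 tests. For diet 3 pairs passed. Hadha gained on Echs1, which catalyses the same hydration on shorter chains: the log2 ratio was 0.95 ± 0.18 in HF d56 and 0.67 ± 0.20 in LF d56 (SD, n = 10 each), a difference of 0.27 ± 0.09 (SE, permutation adjusted p = 0.0451), with 8 of 10 HF d56 arrays above the LF d56 mean. Against Hadh, its partner in the dehydrogenation of hydroxyacyl-CoA, the log2 ratio of Hadha was -0.86 ± 0.12 in HF d56 and -1.03 ± 0.11 in LF d56, a difference of 0.17 ± 0.05 (permutation adjusted p = 0.0451), with 10 of 10 HF d56 arrays above the LF d56 mean. Acadl gained on Acadm in the same way: 0.43 ± 0.11 in HF d56 and 0.30 ± 0.08 in LF d56, a difference of 0.13 ± 0.04 (permutation adjusted p = 0.0451), again in 10 of 10 arrays.

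These adjusted p-values lay just under the threshold. Leaving out 1 array of HF d56 or LF d56 at a time, 0 of the 3 pairs passed in 16 of 20 refits, 1 in 1, 2 in 1 and all 3 in 2. The refits with 0 were those without HF d56 replicate 1, 2, 4, 5, 6, 8, 9 or 10 or without LF d56 replicate 1 to 8. The refit with 1 was without LF d56 replicate 10, and the refit with 2 was without HF d56 replicate 7. With permutation within the spike-in sets the adjusted p was 0.0043 for Hadha with Echs1, 0.0012 for Hadha with Hadh and 0.0605 for Acadl with Acadm. Without the arrays with S100a8 above 100 the differences were 0.32, 0.09 and 0.10 and did not pass (permutation adjusted p = 0.286, 0.552 and 0.444).

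Other pairs did not pass for diet. Acadvl and Acadl, the dehydrogenases of the longest chains, differed by -0.10 ± 0.04 (permutation adjusted p = 0.0965). The subunits Hadha and Hadhb differed by 0.10 ± 0.08 and the thiolases Hadhb and Acaa2 by -0.07 ± 0.09 (permutation adjusted p = 0.579 and 0.809). For LF d56 over LF d0, 0 of the 10 pairs passed, and the ratio of Acadl to Acadm ran the other way from diet at -0.11 (permutation adjusted p = 0.0965). That ratio was 0.41 ± 0.13 in LF d0, so its values in HF d56 and LF d0 lay close together, with a difference of 0.02 (permutation adjusted p = 0.904). Between HF d56 and LF d0, a comparison of ratios added after the data were seen, Hadha with Echs1 (0.34 ± 0.07, permutation adjusted p = 0.0013) and Hadha with Hadh (0.22 ± 0.06, permutation adjusted p = 0.0139) passed out of 10 pairs, each in 10 of 10 HF d56 arrays.

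**Figure D3:**
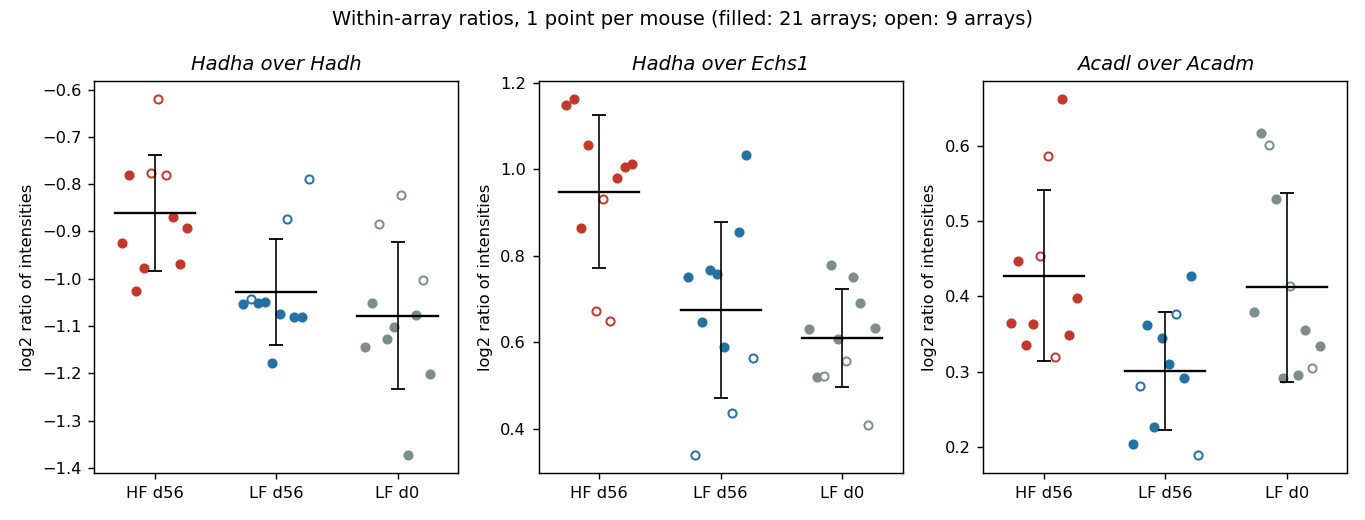
Log2 ratio of 2 spiral genes within each array, 1 panel per pair, with HF d56, LF d56 and LF d0 from left to right; bars are the mean ± SD over 10 mice, filled points the 21 arrays and open points the 9 arrays. Hadha over Echs1 and Hadha over Hadh lie higher on average in HF d56 than in both low fat groups, whereas the mean of Acadl over Acadm is lowest in LF d56.

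Genes that serve the spiral without being part of its core were taken from fixed lists. The auxiliary enzymes, which prepare unsaturated acyl-CoA for the spiral, gave 3 of 4 past the threshold for diet: Decr1 at 0.38, Ech1 at 0.41 and Eci2 at 0.21 (limma adjusted p = 0.00954, 0.0383 and 0.0383). All 3 diet calls were lost with only HF d56 and LF d56 in the fit, with the replicate block (Decr1 adjusted p = 0.057), on the 21 or the 9 arrays alone and without the arrays of high S100a8. Leaving out 1 array at a time, Decr1 passed in all 30 refits, and all 3 genes passed in 11 of them. All 4, with Eci1, rose in HF d56 over LF d0, and none passed for time (0 of 4 by limma, 3 of 4 higher at an unadjusted p below 0.05). In the carnitine shuttle and acyl-CoA activation, 7 of 8 genes were measured and 0 of 7 passed for diet by limma, with 2 higher and 1 lower at an unadjusted p below 0.05. The smallest of those p-values were of Cpt2 (0.30, limma adjusted p = 0.196), Slc25a20 (0.27, adjusted p = 0.362) and Cpt1a (-0.14, adjusted p = 0.902). Across HF d56 and LF d0, Slc25a20, the carnitine carrier, rose by 0.39 and Cpt2, the inner membrane carnitine transferase, rose by 0.38 (limma adjusted p = 0.00159 and 0.0034). Cpt1a, the liver form of the outer transferase, fell by 0.27 (adjusted p = 0.00885), with mean intensities of 17.4 in HF d56 and 21 in LF d0. These lie around the low level of 20. Cpt1b, the muscle form, went the other way at 0.31 and did not pass (limma adjusted p = 0.111). Its mean intensities were 1355 in HF d56 and 1088 in LF d0.

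Etfa and Etfb, which carry electrons from the dehydrogenases to Etfdh, did not pass in any comparison (0 of 2 by limma), with 0.14 and 0.19 in HF d56 over LF d0 (limma adjusted p = 0.28 and 0.136), and both had an unadjusted p below 0.05 there. Among other mitochondrial acyl-CoA dehydrogenases, the further hydroxyacyl-CoA dehydrogenase and the acetyl-CoA thiolase, 1 of 10 passed in HF d56 over LF d0, Acat1, the acetoacetyl-CoA thiolase, at 0.25 (limma adjusted p = 0.00494). Of the peroxisomal spiral 6 of 8 genes were measured and 1 passed in that comparison, Hsd17b4, the peroxisomal D-bifunctional protein, at 0.21 (adjusted p = 0.00479). Of the regulators and responsive genes 11 of 12 were measured, and 8 of these were above 20 on at least 5 arrays. Among them 1 passed in HF d56 over LF d0, the mitochondrial acyl-CoA thioesterase Acot2 at 0.39 (adjusted p = 0.0306). For diet these 3 lists gave 0 of 10, 0 of 6 and 0 of 11 by limma, with 0, 1 and 1 genes higher and 1, 1 and 0 lower at an unadjusted p below 0.05. For time they again gave 0 each, with 3, 0 and 0 higher at an unadjusted p below 0.05. In HF d56 over LF d0 the 3 lists had 2, 2 and 4 genes higher and 1, 1 and 1 lower at an unadjusted limma p below 0.05. Pdk4, a kinase that restrains glucose oxidation and a PPAR target, was the 1 lower among the regulators and responsive genes. It differed by -0.07 for diet and -0.16 in HF d56 over LF d0 (limma adjusted p = 0.998 and 0.434).

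The HF d56 mice were not alike. Replicates 2 and 7 each had 8 of the 10 genes above every LF d56 array, replicate 6 had 7 and replicate 8 had 6. Replicate 9 had none above every LF d56 array and 7 below the LF d56 mean. S100a8 was 4031, 586, 983 and 527 on replicates 2, 7, 6 and 8 and 11.9 on replicate 9. It was also high on replicates 1 and 4, at 1067 and 994.5, which had only 3 and 2 genes above every LF d56 array. Replicate 9 had the highest adipocyte score (9.04 on the log2 scale, against 6.84 to 8.56 on the other HF d56 arrays) and the lowest slow fibre score (4.43, against 4.66 to 9.11). The slow fibre score was 9.11, 8.63, 9.00 and 7.77 on replicates 2, 7, 6 and 8 and 8.83 and 8.73 on replicates 1 and 4. The mitochondrial content score was 11.48, 11.48, 11.49 and 11.43 on replicates 2, 7, 6 and 8 and 11.34 and 11.37 on replicates 1 and 4. That score was 11.3 on replicate 9, and 11.4, 11.4 and 11.39 on replicates 3, 5 and 10. The part of these markers and scores in the spread between HF d56 mice was not tested.

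Between mice of a group, the spiral genes mostly varied together. With group means removed, all 45 pairs of the 10 genes had a positive Pearson r on the 21 arrays, with a median of 0.62 and 31 pairs at a permutation p adjusted over the 45 below 0.05. On the 9 arrays 41 of 45 were positive, with a median r of 0.69 and 8 pairs past that threshold. The pairs share arrays and genes and are not independent. Pairs of genes outside the 10 were not computed, so these counts do not set the spiral genes apart from other genes. On the 21 arrays the highest r was that of Echs1 and Acaa2, at 0.91 (permutation p = 1e-05, the smallest it can give, rho = 0.92, and r = 0.89 without the 2 farthest arrays) and it was 0.81 on the 9 arrays, where Echs1 and Hadh and also Acadl and Hadha had the highest, at 0.92. Acadvl and Acadl had r = 0.87 and 0.75 on the 21 and the 9 arrays, and Hadha and Hadh had r = 0.88 and 0.69.

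Hadhb varied little with its partner subunit. Hadha and Hadhb had r = 0.31 on the 21 arrays (permutation p = 0.167, adjusted p = 0.214, rho = 0.39, and r = 0.22 without the 2 farthest arrays) and -0.13 on the 9 arrays (exact permutation p = 0.749, rho = 0.05). Over its 9 pairs Hadhb had a median r of 0.26 with 1 of 9 past the threshold on the 21 arrays, and Acads likewise had a median r of 0.26 with 2 of 9 past it. The log2 SD of Hadhb between mice was 0.077 in HF d56, the lowest of the 10 genes, 0.153 in LF d56 and 0.081 in LF d0. The part of this spread in its low r was not tested. Whether these correlations differ from those of the other pairs was not tested.

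**Figure D4:**
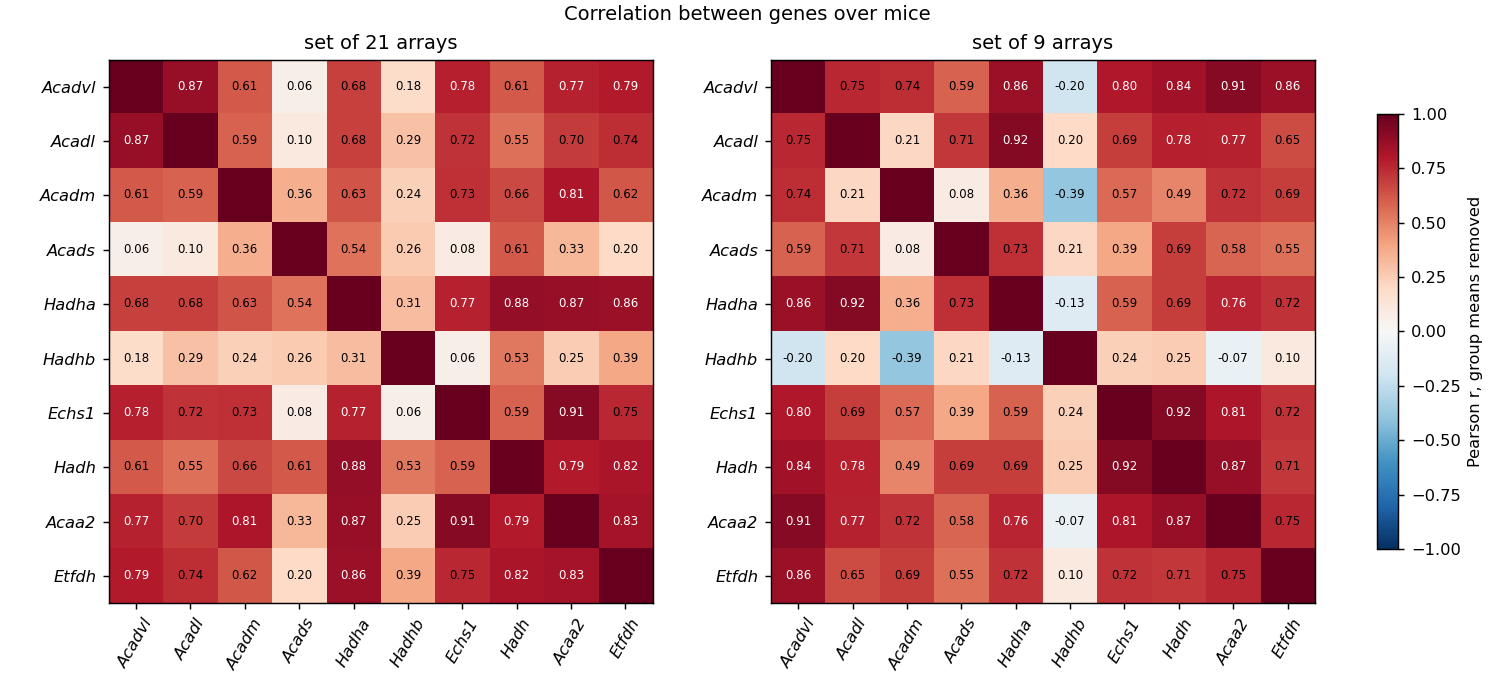
Pearson r between the 10 spiral genes with group means removed, on the 21 arrays and on the 9 arrays, on a colour scale from -1 to 1. The rows and columns of Hadhb and Acads are the palest on the 21 arrays, where r runs between 0.06 and 0.91.

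Among genes outside the 10, those with the highest r to the mean of the 10 across the 21 arrays, after group means were removed, were Eci1 (0.94, and 0.96 on the 9 arrays), Ldhb (0.92 and 0.82), Decr1 (0.90 and 0.93), Acat1 (0.90 and 0.90), Fxyd6 (0.89 and 0.51), Actn2 (0.89 and 0.83), Tmem65 (0.89 and 0.91) and Idh2 (0.88 and 0.71). Eci1, Decr1 and Acat1 are on the lists of spiral-related enzymes above, Ldhb is the lactate dehydrogenase subunit typical of oxidative muscle, and Idh2 is the mitochondrial NADP-dependent isocitrate dehydrogenase. These values are a description over the same arrays and groups.

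The promoters of 9 of the 10 genes were found in the RefSeq table for GRCm38.p6 (Acaa2 was not among them), and the 250 bases upstream of each start were searched. Hadha and Hadhb lie head to head on chromosome 5, with 272 bases between their starts, so that the stretch printed for Hadhb covers most of what lies between them. It is shown because this pair shares its upstream sequence and had a low correlation. Acadm, Acadvl and Echs1 are shown as the 3 genes whose upstream bases held AGGTCA on either strand, the hexamer that nuclear receptors such as the PPARs and estrogen-related receptors recognise, and capitals mark it. The stretch of Hadhb is chr5:30155003-30155252 on the plus strand. Those of Acadm (chr3:153944644-153944893), Acadvl (chr11:70015429-70015678) and Echs1 (chr7:140116422-140116671) are on the minus strand, and each runs 5' to 3' along its gene.
Hadhb: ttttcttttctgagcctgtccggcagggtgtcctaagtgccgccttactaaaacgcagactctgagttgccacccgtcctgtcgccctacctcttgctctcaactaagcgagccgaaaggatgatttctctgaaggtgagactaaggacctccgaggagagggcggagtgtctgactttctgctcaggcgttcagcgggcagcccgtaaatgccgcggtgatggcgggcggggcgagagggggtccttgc
Acadm: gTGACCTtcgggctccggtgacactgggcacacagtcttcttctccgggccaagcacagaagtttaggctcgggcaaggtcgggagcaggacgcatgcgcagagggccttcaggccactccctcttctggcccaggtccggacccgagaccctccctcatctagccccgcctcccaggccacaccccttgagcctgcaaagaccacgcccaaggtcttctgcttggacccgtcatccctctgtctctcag
Acadvl: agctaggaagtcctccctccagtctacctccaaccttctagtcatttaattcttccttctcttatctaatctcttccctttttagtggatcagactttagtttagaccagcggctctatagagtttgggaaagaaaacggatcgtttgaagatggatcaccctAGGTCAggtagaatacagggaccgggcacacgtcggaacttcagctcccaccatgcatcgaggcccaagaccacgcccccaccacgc
Echs1: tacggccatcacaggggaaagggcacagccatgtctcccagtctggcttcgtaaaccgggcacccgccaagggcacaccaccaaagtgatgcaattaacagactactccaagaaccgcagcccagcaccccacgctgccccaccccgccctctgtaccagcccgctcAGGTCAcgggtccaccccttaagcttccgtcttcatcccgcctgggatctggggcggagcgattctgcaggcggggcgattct

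The hexamer lies 87 to 82 bases upstream of the start of Acadvl and 83 to 78 bases upstream of that of Echs1, on the strand of the gene. In Acadm it lies 249 to 244 bases upstream on the opposite strand. Of all 27025 promoters in the table, 13.8% hold it in a window of the same length. Of these 3 genes, Acadm and Acadvl rose in HF d56 over LF d0, and Echs1 was at 0.04 and did not pass. Echs1 was not tested against either of them. Acadl, Hadha, Hadhb and Etfdh, whose windows lack the hexamer, rose there too. The longer motif TNAAGGTCA, on either strand, which overlaps the hexamer, was in 0 of the 9 windows and 1.14% of all promoters. GGGCGG, the GC box, was in 6 of 9 and 32.9% of all on either strand, and CCAAT in 2 of 9 (Hadh and Etfdh) and 34.5%. The windows of Hadha and Hadhb overlap, and the GC box of Hadha is the same site as a GC box of Hadhb. That site therefore counts for both genes. A match describes the letters and not a bound site.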

How the data were processed

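RNA of 30 quadriceps was measured on 1-colour arrays with biotin label. The deposited table holds linear intensities that the authors made with GCRMA, per the submitters' processing notes, with no version given; array medians were 8.9 to 9.4. The 64 control entries were left out. The log2 of each deposited intensity was taken (pseudocount 0), and limma 3.58.1 in R 4.3.3 (lmFit, eBayes, group as the only factor, 27 residual and 3.97 prior degrees of freedom) tested 16475 entries, of which 6844 exceeded 20 on at least 5 arrays. The number of arrays limits the precision. Pair ratios and correlations used permutation tests (100000 resamples, exact on 9 arrays, scipy 1.17.1). The fit was tested on simulated data.

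The members, lists and markers were chosen with earlier results of these data known. All members were named; from each other list, genes past the threshold and otherwise up to 3 of smallest p, and for likeness the 8 genes of highest r. Pdk4 and Cpt1b were named after their values were seen. Alternatives varied normalization, filters, pseudocount, eBayes options, array weights, sets, covariates, a replicate block and the arrays included. Same-numbered mice correlated between -0.35 and 0.57 for HF d56 and LF d56, so numbers were not taken to pair mice.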

Additional observations from a re-analysis of the deposited data

Results flagged for a closer look

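In HF d56, the highest array of Hadh, replicate 2 with an intensity of 4294, stood off from the other 9 arrays: the gap to its neighbour was 0.479 of the range of the group on the log2 scale, above the critical value for 10 arrays. That was 1 of 60 groups of values searched, and chance gives about 1 in 20.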

How the results depend on the processing

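The 7 calls between HF d56 and LF d0, the call of Acadm between LF d56 and LF d0 and the 0 calls between HF d56 and LF d56 held with each of the 30 arrays left out in turn. The number of the 10 genes called between LF d56 and LF d0 was 0 with quantile normalization (Acadm 0.21, adjusted p = 0.0506), on the 9 arrays alone, without arrays with S100a8 above 100, and with the replicate block (Acadm adjusted p = 0.0521). The replicate block changed no other call of the 10 genes: 0 were called for diet and 7 between HF d56 and LF d0, and the same-number arrays did not deviate together. Between HF d56 and LF d0 the number was 0 on the 9 arrays, 0 without arrays with S100a8 above 100 and 4 with the adipocyte score. For diet it was 1 with the slow fibre score and 2 with the mitochondrial content score. Pairs past the threshold for diet were 0 on the 9 arrays, with quantile normalization and without arrays with S100a8 above 100, and 0 to 3 with 1 array left out; between HF d56 and LF d0 they were 0 on the 9 arrays and without arrays with S100a8 above 100. With 3 arrays a group, an exact pair test cannot go below 0.10.

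Other values turned in sign. On the 9 arrays the median over the 10 genes between LF d56 and LF d0 was -0.014, with Acadl -0.063, Hadha -0.052, Hadhb -0.025, Echs1 -0.003, Hadh -0.053 and Acaa2 -0.047. There the diet difference of Echs1 was 0.06, and pair ratios over time were Acadm to Acads -0.133, Hadha to Echs1 -0.049, Hadhb to Acaa2 0.023 and Hadha to Hadhb -0.028. On the 21 arrays Acadvl to Acadl was -0.011 for time, and Acadl to Acads 0.052 and Acadm to Acads 0.035 between HF d56 and LF d0. Echs1 was 0.026 for diet with the adipocyte score, and -0.02 for time and -0.045 between HF d56 and LF d0 with the mitochondrial content score. Without arrays with S100a8 above 100, Acads was -0.239 for diet, Hadhb -0.003 and Hadh -0.018 for time, and Echs1 -0.03 between HF d56 and LF d0. The diet ratios were then Acadvl to Acadm -0.076, Acadvl to Acads 0.25, Acadm to Acads 0.326, Hadhb to Acaa2 0.092 and Hadha to Hadhb -0.022, and the time ratios Acadvl to Acadm 0.004, Acadm to Acads -0.385 and Hadha to Echs1 -0.071. Adding 16 before the log gave 0.003 for Acadl to Acads between HF d56 and LF d0, and quantile normalization gave -0.016 for Acadm to Acads over time. With 1 array left out, Echs1 ran from -0.059 to 0.027 for diet, -0.001 to 0.085 for time and -0.013 to 0.073 between HF d56 and LF d0. Diet ratios then ran from -0.017 to 0.183 for Acadl to Acads, -0.141 to 0.074 for Acadm to Acads and -0.111 to 0.085 for Acadvl to Acads. Time ratios ran from -0.079 to 0.101 for Acadm to Acads, -0.002 to 0.032 for Acadvl to Acadl, -0.161 to 0.005 for Acadvl to Acads and -0.004 to 0.068 for Hadha to Hadhb. Between HF d56 and LF d0 ratios ran from -0.011 to 0.038 for Acadl to Acadm, -0.102 to 0.080 for Acadl to Acads and -0.128 to 0.082 for Acadm to Acads. The cause of these changes was not tested.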
